A study of Mus musculus with 16 samples.

Results

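Promoters of the organic ion and ABC transporters were examined in promoter capture Hi-C data from mouse liver. Members were the HindIII bait fragments that hold the start of an autosomal protein-coding gene of the Slc22a, Slco, Abca, Abcb, Abcc or Abcg families in GENCODE vM1 on build mm9, without Abcb11. Of the 80 genes that met this rule, 57 started on a listed bait, and they lay on 55 baits of 18165 in the whole series and of 14736 baits of autosomal protein-coding genes. Promoter capture Hi-C joins DNA ends that lie close together in the nucleus and enriches the products that contain a promoter fragment, the bait. The livers came from male wild type C57BL/6 mice fed ad libitum. The mice were 8 weeks old when a period of 2 weeks under 12 h of light and 12 h of dark began. Livers were taken every 6 h from ZT0 to ZT18, where ZT0 is the start of the light phase and ZT12 that of the dark phase. Every timepoint had 3 pools of 2 livers, and the pools were merged into 1 list of interactions before deposit. Fragments were listed as in contact where their CHiCAGO score was at least 5, and a higher score means more read pairs than the distance between the fragments and the noise of the assay would give. With 1 list per timepoint there is no replicate error and no test of a difference between timepoints. The study's summary of sequencing gives the sizes of the ZT6, ZT12 and ZT18 lists in another order than the labels, which were followed, so timepoints other than ZT0 carry that doubt. The lists give no read counts, so the depth behind each contact is unknown, and a pair missing from a list may lie just under the minimum score. In whole liver, a contact made in fewer cells and a contact made less often in every cell cannot be told apart. The lists hold no expression, so the tissue could not be checked against marker genes.

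The Slc22a family carries organic cations, organic anions and carnitine across the plasma membrane, and the Slco family, the organic anion transporting polypeptides, takes up bile acids, steroid conjugates, thyroid hormones and many drugs. Most ABC proteins use ATP to pump their cargo out of the cell or into an organelle, while Abcc8 and Abcc9 are channel regulators. In a hepatocyte, uptake carriers of the Slc22a and Slco families sit in the membrane that faces the blood, ABC pumps of the canalicular membrane move conjugates, phospholipid and sterols into bile, and other ABC pumps return conjugates to the blood. Abca1 and Abcg1 load cholesterol onto high-density lipoprotein.

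The windows of 250 bases before the annotated start are shown for the most contacted Slc22a and Slco promoters, for a canalicular transporter with a 2-fold difference described further on, and for the pair of transporter promoters with the highest score between them. All were read from mm9 on the strand of the gene and overlap no annotated exon. Capitals mark the searched motifs: the letters TATAAA of the TATA box, CACGTG of the E-box, AGGTCA of the nuclear receptor half-site, found in no promoter window shown, and GGGCGG of the GC box, on either strand. The D-box and LRH-1 site letters given further on were in none of these 5 windows.
Slc22a23, chr13:34437052-34437301, minus strand: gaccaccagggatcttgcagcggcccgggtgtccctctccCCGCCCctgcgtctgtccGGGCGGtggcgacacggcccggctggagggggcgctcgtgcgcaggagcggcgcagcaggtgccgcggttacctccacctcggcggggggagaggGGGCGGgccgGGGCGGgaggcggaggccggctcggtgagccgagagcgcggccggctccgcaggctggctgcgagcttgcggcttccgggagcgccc
Slco2a1, chr9:102910567-102910816, plus strand: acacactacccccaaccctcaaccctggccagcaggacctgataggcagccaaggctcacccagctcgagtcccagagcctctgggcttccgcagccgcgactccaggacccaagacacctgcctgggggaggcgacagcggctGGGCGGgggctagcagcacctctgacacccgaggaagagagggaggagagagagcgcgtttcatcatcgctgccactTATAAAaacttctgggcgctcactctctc
Abcc2, chr19:43856432-43856681, plus strand: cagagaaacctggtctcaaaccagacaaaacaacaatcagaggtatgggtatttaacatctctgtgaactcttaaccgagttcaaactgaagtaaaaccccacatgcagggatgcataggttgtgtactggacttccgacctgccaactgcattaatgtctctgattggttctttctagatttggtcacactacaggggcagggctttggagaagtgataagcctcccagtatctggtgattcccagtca
Abca8a, chr11:109957293-109957542, minus strand: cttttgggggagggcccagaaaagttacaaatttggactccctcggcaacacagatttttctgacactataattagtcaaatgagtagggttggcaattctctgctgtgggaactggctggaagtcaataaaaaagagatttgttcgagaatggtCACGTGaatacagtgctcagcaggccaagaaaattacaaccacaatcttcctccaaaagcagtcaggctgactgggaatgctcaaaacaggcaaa
Abca8b, chr11:109857160-109857409, minus strand: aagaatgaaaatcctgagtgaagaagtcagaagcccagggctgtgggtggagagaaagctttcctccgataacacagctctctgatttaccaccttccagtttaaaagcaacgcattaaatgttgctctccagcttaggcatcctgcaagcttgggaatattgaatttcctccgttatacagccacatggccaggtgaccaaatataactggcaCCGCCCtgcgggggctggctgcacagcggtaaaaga
The Slc22a23 window had a G+C content of 78.8% and 4 GC boxes, and the Slco2a1 window had 63.2% with a TATA box and a GC box. The Abcc2 window had 45.2% and held none of the searched letters. The Abca8b window ran past the end of its bait, which is only 660 bp long, whereas the other windows lay wholly on theirs.

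Contacted fragments were also short enough in places to be shown whole. The next 3 were listed at all 4 timepoints, overlap no exon and are given on the plus strand of mm9, each starting at its HindIII cut.
Contacted by Abca9, in an Abca8b intron, chr11:109808099-109808325: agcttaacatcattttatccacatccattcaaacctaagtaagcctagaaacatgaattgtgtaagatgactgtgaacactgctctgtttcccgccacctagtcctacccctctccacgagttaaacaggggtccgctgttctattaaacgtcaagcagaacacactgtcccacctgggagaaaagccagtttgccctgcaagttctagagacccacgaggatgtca
Contacted by Slc22a23, in its own intron, chr13:34336022-34336214: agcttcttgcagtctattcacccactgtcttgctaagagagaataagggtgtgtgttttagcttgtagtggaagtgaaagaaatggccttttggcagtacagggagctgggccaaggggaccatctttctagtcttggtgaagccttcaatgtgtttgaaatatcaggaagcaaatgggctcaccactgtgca
Contacted by Slco2a1, between genes, chr9:102837691-102837923: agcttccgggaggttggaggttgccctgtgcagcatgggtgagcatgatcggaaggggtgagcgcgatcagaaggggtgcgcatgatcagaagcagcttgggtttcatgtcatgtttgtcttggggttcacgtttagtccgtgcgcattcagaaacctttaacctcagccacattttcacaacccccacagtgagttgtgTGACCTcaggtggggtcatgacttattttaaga
The first of these scored 9.23, 13.24, 8.98 and 9.22 with the Abca9 promoter at ZT0, ZT6, ZT12 and ZT18. The second, 193 bp long, scored 7.05, 5.98, 7.58 and 11.15 with the Slc22a23 promoter. The third scored 6.55, 5.8, 9.32 and 5.79 with the Slco2a1 promoter and holds a half-site on the opposite strand, TGACCT. Another fragment of this kind, 179 bp long in a Slco2a1 intron, is not shown. It scored 10.28, 6.48, 9.32 and 9.39 with the Slco2a1 promoter and held none of the searched letters. The share of contacted fragments with half-site letters was not computed.

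Across the whole set of 80 genes, E-box letters were in 9 windows (11.2%) and in 6.52% of the 21413 windows of all autosomal protein-coding genes. The 9 were Abca1, Abca15, Abca8a, Abcc10, Abcc4, Abcc8, Slc22a16, Slc22a4 and Slco1c1. The D-box letters TTATGTAA were before Slc22a20 alone (1.25% against 0.864% of all windows), and the LRH-1 site letters CAAGGTCA, which contain the half-site, were before Abcg2 alone (1.25% against 1.18%). TATA box letters were in 10 windows (12.5% against 12.4%), half-site letters in 11 (13.8% against 12.6%) and GC box letters in 28 (35.0% against 39.8%). The median G+C content was 52.6% for transporters and 54.4% for all windows. These shares describe letters in a window and not binding.

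Of the transporter genes, 71.2% started on a listed bait, against 76.8% of all autosomal protein-coding genes. A fragment is a listed bait only where it has a listed contact. A gene without a listed bait may therefore have no captured fragment, or a captured one without a contact. The lists do not tell these apart. The 23 genes without a listed bait included Slco1b2, a main bile acid and drug uptake carrier of mouse hepatocytes, Abcg2, a canalicular pump of sulfate conjugates and drugs, and Abcc1, a basolateral conjugate pump. The others were Abca5, Abca12, Abca13, Abcb5, Slc22a4, Slc22a12, Slc22a19, Slc22a20, Slc22a22, Slc22a26 to Slc22a30, Slco1a5, Slco1a6, Slco1c1, Slco5a1, Slco6c1 and Slco6d1. For these genes the nearest listed bait lay between 9.80 kb (Slc22a12) and 458 kb (Slc22a28) away, with a median of 143 kb. A fragment of this group was listed as other end once, that of Slc22a12 at ZT12 with a score of 6.69. Some of these fragments resemble each other closely: 97.8% of the Slc22a29 fragment, 95.3% of the Slc22a27 fragment and 100% of the Slc22a30 fragment matched another transporter start fragment at 90% identity or more over at least 200 bp. A match of this kind, interspersed repeats included, was found for 12 of the 23 unlisted fragments and for 9 of the 55 baits, with the largest matched shares among baits at Abcb1a (48.4%) and Slc22a21 (36.3%). Abca3 and Abca17 share a bait, as do Abcg5 and Abcg8, and 4 further baits hold the start of another protein-coding gene, namely Slc22a7 with Gm5093, Abcb8 with Atg9b, Abca14 with Crym and Abcc6 with Nomo1. Contacts of such a bait cannot be assigned to either gene.

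The transporter baits had 1000 distinct pairs in the 4 lists over the day, and the lists from ZT0 to ZT18 held 604, 628, 642 and 611 of them. Per 100000 listed interactions of the whole timepoint these were 413, 406, 424 and 404 pairs. All of them joined fragments of the same chromosome. A transporter promoter had a median of 10 contacts over the 4 lists together (quartiles 4.50 and 24.0), and the 14681 other baits of autosomal protein-coding genes had a median of 10 as well (quartiles 4 and 22). Contact numbers spread from 1 to 127 between transporter promoters, and 10 of them (18.2%) had 3 contacts or fewer, against 21.9% of the other baits. Captured promoters without a listed contact are in neither set, so 1 is the lowest possible number. Spearman's rho between bait length and contacts was -0.057 over the 55 baits, which share libraries and lists, and -0.050 over the other baits.

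**Figure D1:**
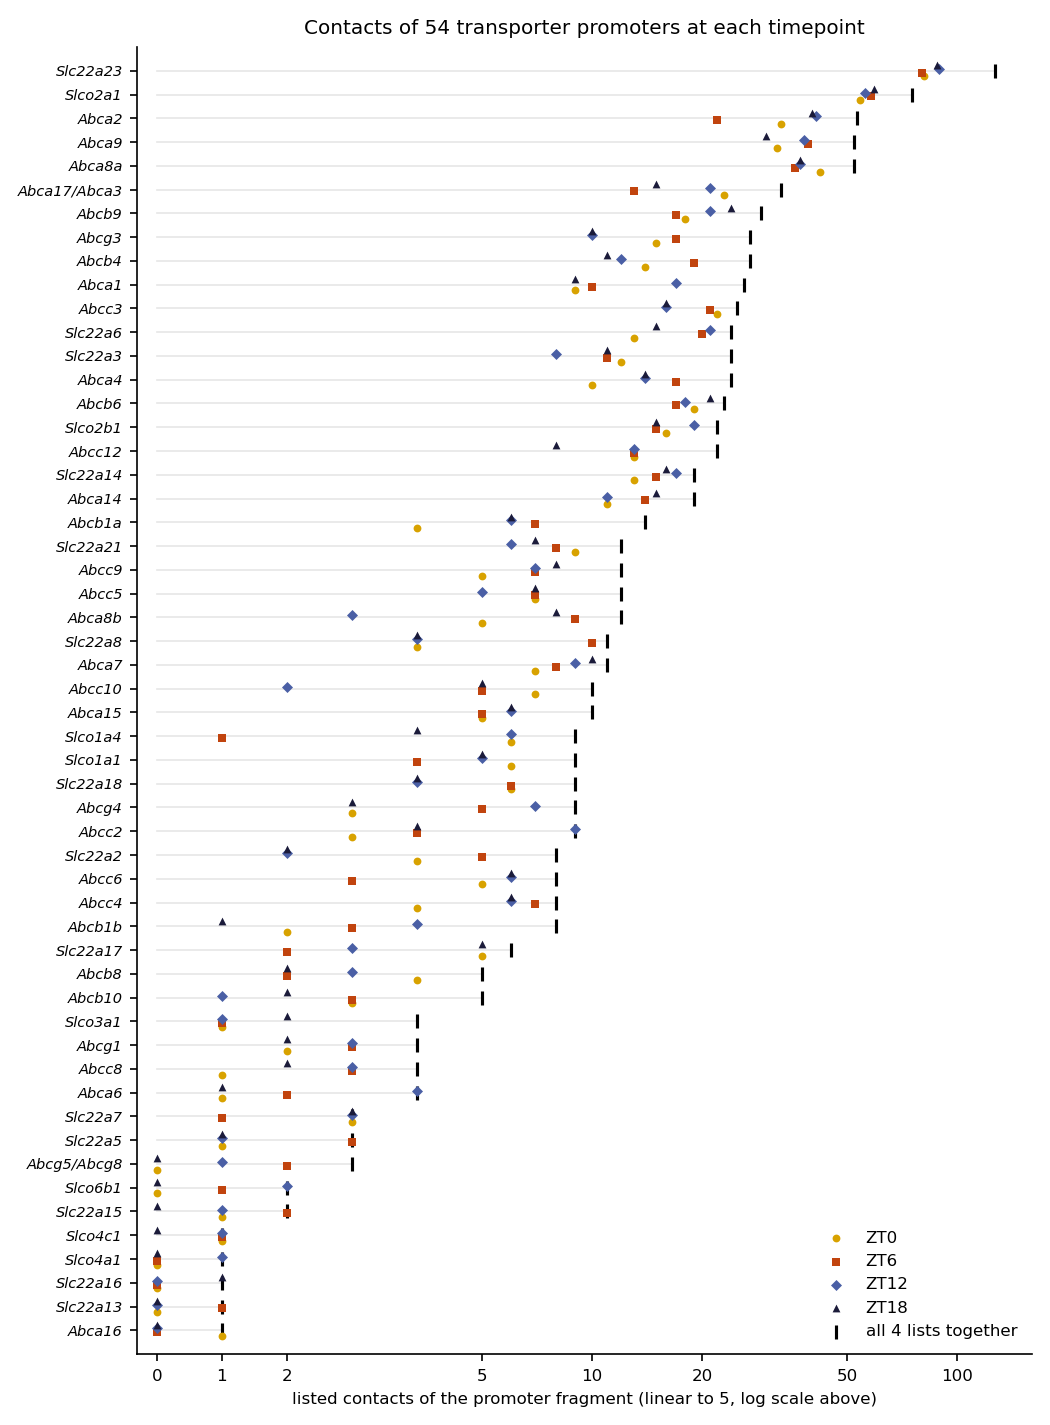
Listed contacts of each of 54 transporter promoter fragments at ZT0, ZT6, ZT12 and ZT18 (coloured symbols) and over the 4 lists together (black bars), on an axis that is linear to 5 and logarithmic above. Slc22a23 has the most with 127, and 10 promoters at the foot have 3 or fewer.

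Families differed in how many contacted fragments their promoters had, where every fragment of an adjoining run was counted. The 12 Abca baits had a median of 21.5 contacts (1 to 53), the 7 Abcb baits 14 (5 to 29), the 9 Abcc baits 10 (4 to 25), the 15 Slc22a baits 9 (1 to 127), the 8 Slco baits 6.50 (1 to 75) and the 4 Abcg baits 6.50 (3 to 27). With other ends within 10 kb merged over the 4 lists together, Abca8a, Abca9 and Abca2 had 9, 8 and 8 contacts, Slc22a23 had 13 and Slco2a1 had 8. In this merging a fragment listed at another timepoint can bridge a gap, so the merged count can fall below that of a single list. Slc22a23 had 14, 16, 16 and 18 merged contacts in the single lists. The merged median over the whole set was 4, and family medians were not computed with merged ends. Of the 123 Slco contacts, 60 (48.8%) were listed at all 4 timepoints, but 46 of these came from the Slco2a1 promoter, and without it the share was 14 of 48 (29.2%). Of the 43 Abcg contacts, 5 (11.6%) recurred in every list. Over all transporter pairs 331 (33.1%, 95% Wilson interval 30.3 to 36.1, counting error only) were listed at all 4 timepoints, and 331 at 1. The background share over pairs of all autosomal protein-coding baits was 32.9%. Contacts listed at a single timepoint were weak, with a median score of 5.61 and a highest score of 9.89. Contacts listed at all 4 had a median highest score of 10.4. That value takes the highest of 4 scores and the other a single score, so part of the gap is fixed by construction.

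The median distance was shorter for transporter pairs than for other pairs, a description without a test. The median distance between fragment midpoints was 125 kb (quartiles 62.6 and 220 kb), against 159 kb for pairs of the other protein-coding baits, and 42.7% of them exceeded 150 kb against 52.4%. The median per timepoint was 114 kb at ZT0, 110 kb at ZT6, 101 kb at ZT12 and 103 kb at ZT18, and for other pairs 145, 146, 137 and 138 kb. Both ends were baits in 210 transporter pairs (21.0%, interval 18.6 to 23.6). With contacts counted once from every bait in both sets, 220 of 1010 transporter contacts (21.8%) reached another bait, against 27.5% for the other protein-coding baits. By annotation, 195 of 1010 contacts counted from a transporter bait (19.3%) reached the start of a protein-coding gene, against 25.1% for other baits, and 292 (28.9%) reached an exon without a gene start, against 24.4%. Fragments within an intron made up 23.2% (20.6% for other baits) and fragments between genes 25.3% (26.1%). Inside the transporter gene itself lay 178 contacts (17.6%). Where the bait had a single direction of transcription, 520 contacts lay downstream and 454 upstream.

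**Figure D2:**
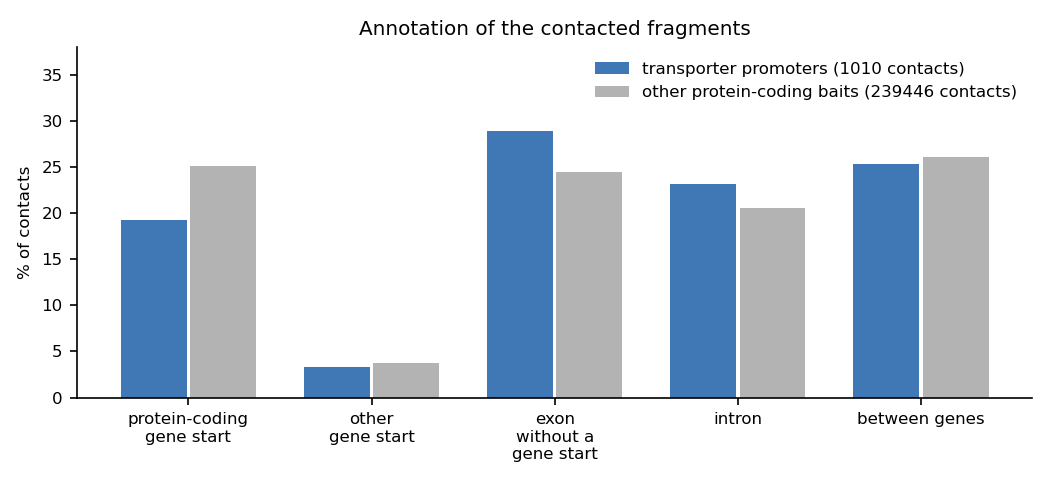
Percentage of contacts whose other end holds a protein-coding gene start, another gene start, an exon without a start, intron only or no gene, for transporter promoters (1010 contacts) and for the other protein-coding baits. Gene starts take 19.3% of transporter contacts and 25.1% of the others.

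Among the hepatocyte uptake carriers on listed baits, Slco2b1 reached gene starts on both sides, and the Slco1a carriers and Slc22a7 had under 10 contacts each. Slco2b1, an organic anion uptake carrier, had 16, 15, 19 and 15 contacts and 22 in all, of which 12 (54.5%) recurred in every list. Its highest score was with the start fragment of Gm4980, 83.7 kb downstream, at 15.43, 16.18, 22.17 and 20.2. The start of Neu3, a plasma membrane sialidase, lay 117 kb upstream and scored 9.07, 5.6, 5.87 and 7.44. Slco1a1 and Slco1a4, carriers of bile acids and steroid conjugates, had 9 contacts each. Slco1a1 had 6, 4, 5 and 5 and Slco1a4 had 6, 1, 6 and 4. A fragment between genes, 94.5 kb upstream of Slco1a1, scored 11.02, 10.09, 11.83 and 8.81, and the Slco1a4 promoter shared it at ZT0 (6.03) and ZT12 (6.66). Slc22a7, the organic anion transporter OAT2, had 3, 1, 3 and 3 contacts on the bait it shares with Gm5093, all with gene starts, of which Crip3 recurred in every list at 8.72, 7.04, 8.62 and 8.76.

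**Figure D3:**
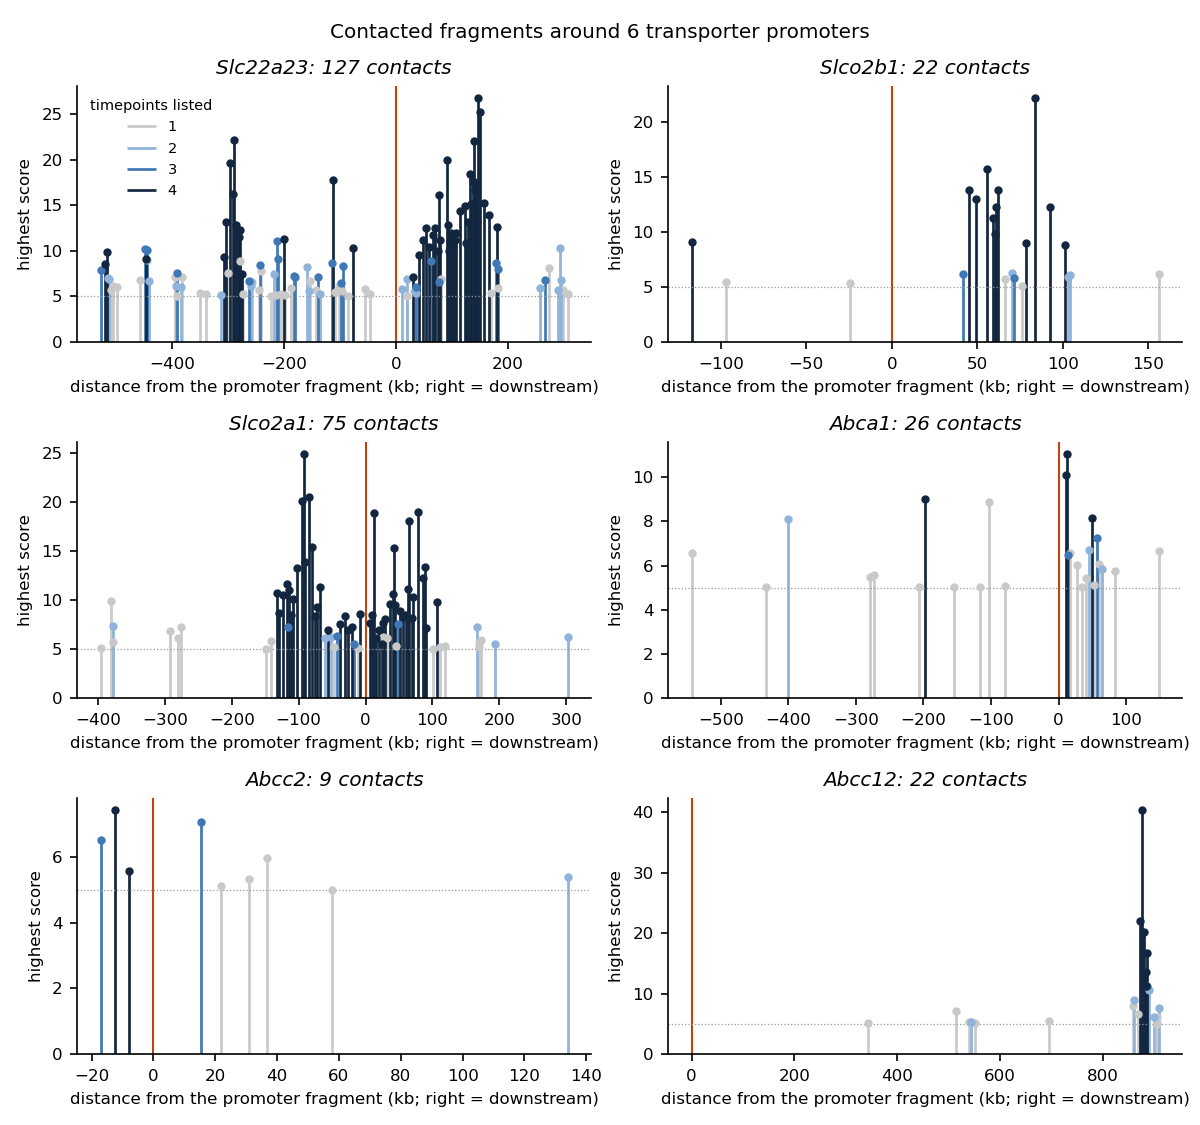
Contacted fragments around the promoters of Slc22a23, Slco2b1, Slco2a1, Abca1, Abcc2 and Abcc12, by distance in kb (right is downstream of the gene) and by the highest CHiCAGO score over the timepoints; colours give the number of timepoints listed and the dotted line the minimum score of 5. Slco2b1 contacts lie mostly downstream, Slco2a1 contacts form a block on both sides, and Abcc12 contacts gather near 876 kb.

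The most contacted transporter promoter was that of Slc22a23, a family member whose substrate is not settled, with its bait at chr13:34433537-34439302. It had 81, 80, 89 and 88 contacts, 127 in all, of which 50 (39.4%) were in every list. Inside its own gene lay 43 of them, and the fragment 147 kb downstream scored 24.84, 20.47, 26.74 and 20.89. Upstream, 8 contacted fragments overlapped 1300014I06Rik, and that at 289 kb scored 18.86, 22.19, 19.65 and 20.44. Left out, its pairs changed the set's share in every list from 33.1% to 32.2% and the median distance from 125 to 117 kb. Slco2a1, the prostaglandin transporter, had 54, 58, 56 and 59 contacts and 75 in all. Of these 46 (61.3%) were in every list, the largest such share among promoters with at least 10 contacts. Inside the gene lay 24, and 11 overlapped its neighbour Ryk, a receptor for Wnt ligands. Its highest score, 19.16, 24.84, 20.44 and 23.47, was with a fragment between genes 92.2 kb upstream.

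Carriers known mainly from kidney were contacted in liver too. Slc22a6 and Slc22a8, the organic anion transporters OAT1 and OAT3, lie 31.1 kb apart between the fragment midpoints. Slc22a6 had 13, 20, 21 and 15 contacts (24 in all) and Slc22a8 had 4, 10, 4 and 4 (11 in all). The pair scored 8.14, 9.94, 8.58 and 7.63, and 9 fragments were contacted by both, which is 37.5% of the Slc22a6 contacts and 81.8% of the Slc22a8 contacts. Slc22a8 reached the start of Chrm1, a muscarinic acetylcholine receptor, at 73.7 kb with 17.59, 19.14, 19.27 and 18.48. Of the carnitine transporters, Slc22a5 had 3 contacts in all and Slc22a16 had 1. Slc22a21 had 12, all with other baits, and its contact with the fragment that holds the starts of Il5, an eosinophil growth factor, and Gm12214 scored 14.98, 15.96, 25.19 and 14.31 over 258 kb.

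Of the canalicular pumps, Abcb4 had the most contacts and the bait of Abcg5 and Abcg8 the fewest. The 5 baits had a median of 9 contacts (3 to 27), and together 23, 35, 32 and 22 at ZT0, ZT6, ZT12 and ZT18. Abcb4, the phospholipid flippase of bile, had 14, 19, 12 and 11 and 27 in all, of which 3 recurred in every list. These were the start of Crot, a peroxisomal carnitine acyltransferase, at 101 kb (6.46, 6.21, 7.01 and 6.44) and 2 fragments between genes at 147 and 149 kb. The fragment at 149 kb scored 10.74, 5.24, 9.26 and 7.69. Abcc2, the pump of bilirubin and glutathione conjugates, had 3, 4, 9 and 4 contacts. All 9 of its contacts were listed at ZT12, and 4 of these were at no other timepoint, with scores of 5.13, 5.33, 5.97 and 5. Upstream, a fragment with exon sequence of Cutc 12.4 kb away scored 6.38, 6.17, 7.43 and 5.28. Of its contacts 5 lay inside Abcc2 itself.

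Abcb1a and Abcb1b are the duplicated P-glycoprotein genes that export drugs. Abcb1a had 4, 7, 6 and 6 contacts and 14 in all, of which 11 overlapped Abcb1b, and a single one recurred in every list (5.09, 7.57, 9.54 and 7.14 at 183 kb). Abcb1b had 2, 3, 4 and 1. The bait shared by Abcg5 and Abcg8, which together form the sterol pump of bile, had 0, 2, 1 and 0 contacts, with scores of at most 5.35.

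Basolateral pumps had a median of 10 contacts over 4 baits (8 to 25). Abcc3, which returns glucuronides to the blood, had 22, 21, 16 and 16 contacts and 25 in all, of which 12 recurred. Inside Abcc3 lay 10, with the highest score at 10 kb (16.81, 14.77, 16.77 and 16.51), and 9 overlapped the neighbouring gene Ankrd40. Abcc4, a pump of bile acids and cyclic nucleotides, had 4, 7, 6 and 6 contacts and 8 in all. Abcc5 had 7, 7, 5 and 7 and 12 in all, all of them with baits, and reached the start of Lamp3 at 721 kb with 8.81, 11.5, 5.47 and 13.86. Abcc6, loss of which causes ectopic calcification, had 5, 3, 6 and 6 contacts on the bait it shares with Nomo1. In every list were a Nomo1 exon fragment at 24.0 kb (11.22, 13.32, 11.96 and 11.72) and the starts of Gtf2h1 and Hps5 at 775 kb (6.1, 10.25, 6.66 and 6.41). The starts of Grin2d and Kdelr1 at 150 kb reached 12.49 at ZT12. Weaker contacts at ZT18 included the starts of the acute phase genes Saa2 at 731 kb (5.1) and Saa3, with Saal1, at 691 kb (6.23), the latter also at ZT12 (5.53).

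Lipid exporters differed in the kind of fragment they reached. Abca1 had 9, 10, 17 and 9 contacts and 26 in all, of which 14 lay in its own gene and 4 recurred. Near the bait it reached adjoining intron fragments at 11.2 and 12.2 kb in every list, the latter with 8.56, 9.87, 9.56 and 11.04. Upstream it reached a fragment between genes at 198 kb with 6.12, 9, 7.11 and 8.29. At ZT12 alone it was listed with the starts of Nipsnap3b, AI427809 and Slc44a1, a choline transporter, with 6.67, 8.88 and 5.5. Abca7, a phospholipid exporter related to Abca1, had 7, 8, 9 and 10 contacts, and all 11 of its contacts were with gene starts, among them Cnn2 (13.92, 10.72, 12.4 and 13.85) and Gpx4, a glutathione peroxidase for lipid peroxides (8.29, 9.77, 6.27 and 6.96). Abcg1 had 2, 3, 3 and 2 contacts, of which a fragment between genes 39.0 kb upstream recurred with 5.52, 7.24, 7.96 and 9.34.

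ABC proteins of lysosomes and lamellar bodies had 29, 33 and 53 contacted fragments on their 3 baits. With other ends within 10 kb merged over the 4 lists together, these became 5, 5 and 8 contacts, against a median of 4 over all transporter promoters. Merged within the single lists, the bait of Abca3 had 6, 6, 4 and 5. Abca2, a lysosomal lipid transporter, had 33, 22, 41 and 40 contacts, of which 22 were gene starts. Its highest score was with a fragment of 158 bp that holds the start of Lcn12, a lipocalin, 65.2 kb downstream, at 15.28, 12.63, 25.5 and 20.42. The adjoining fragment with the starts of C8g, a complement subunit, and Fbxw5 scored 10.07, 11.33, 19.9 and 16.61. The bait Abca17/Abca3, which holds the start of the surfactant lipid transporter Abca3, had 23, 13, 21 and 15 contacts and 33 in all, and reached the starts of Amdhd2 (12.14, 10.65, 12.28 and 11.18) and Pdpk1, a kinase of insulin signalling (12.14, 10.84, 10.1 and 8.45). Abcb9, a lysosomal peptide transporter, had 18, 17, 21 and 24 contacts, all 29 downstream, with the highest score at a Hip1r exon fragment 92.4 kb away (23.38, 21.02, 18.71 and 27.22).

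Of the mitochondrial transporters, Abcb6, a porphyrin transporter, had 19, 17, 18 and 21 contacts and 23 in all, of which 13 (56.5%) were in every list, while Abcb8 and Abcb10 had 5 each. Abcc8, the sulfonylurea receptor of pancreatic beta cells, had 4 contacts and Abcc9, the subunit of the same kind in muscle, had 12. A list of 16 baits of other transporter genes outside the rule, among them Abcb11 and Slc10a1, had a median of 11 contacts (3 to 41).

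Abca4, the retinoid transporter of photoreceptors, had 10, 17, 14 and 14 contacts and 24 in all, of which 16 lay inside its own gene. The bait of Abca14 had 19 in all, Abca15 had 10 and Abca16 had 1. Slc22a14 had 13, 15, 17 and 16 contacts and 19 in all, while its neighbour Slc22a13, a urate and nicotinate transporter, had 1. Slc22a18 had 9, Slco3a1 had 4, Slco6b1 had 2, and Slco4a1 and Slco4c1 had 1 each.

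Abcc12, a family member without a settled cargo, had the highest score of all transporter promoters. It had 13, 13, 13 and 8 contacts, 22 in all, and the 6 that recurred in every list lay between 873 and 886 kb downstream of its bait, chr8:89095771-89106258. With the start fragment of Neto2, which encodes an auxiliary subunit of kainate receptors, it scored 26.02, 34.29, 40.36 and 29.26 over 876 kb. The start fragment of Neto2 is itself a bait with 22, 23, 21 and 23 contacts, 34 in all, and 16 of these lay within 50 kb of the Abcc12 bait. In turn 16 of the 22 Abcc12 contacts lay within 50 kb of that fragment. No match of 90% identity was found between the fragments. Abcg3, a rodent relative of Abcg2, also reached far: it had 15, 17, 10 and 10 contacts, all 27 upstream, and scored 21.99, 25.29, 20.81 and 22.3 with the start fragment of Gbp6, an interferon-induced GTPase, over 312 kb.

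Transporter genes often stand in rows of duplicates, and 10 contacts joined a pair of transporter promoters. Of the 22 pairs of transporter baits within 300 kb of each other, 10 (45.5%) were listed as a contact, against 31.2% of the neighbouring pairs of all autosomal protein-coding baits. The median distance was 108 kb for the 22 pairs and 142 kb for all. Between 50 and 100 kb the shares were 4 of 8 for transporters and 37.4% for all. Contacts between transporter promoters involved 13 baits, and 6, 6, 7 and 7 were listed at ZT0, ZT6, ZT12 and ZT18. The strongest joined Abca8b and Abca8a, 99.4 kb apart on chromosome 11, at 21.74, 18.54, 20.25 and 21.3. Of the 10 contacts, only this and the contact of Slc22a8 with Slc22a6 were in every list.

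In the chromosome 11 row of Abca6-like genes, which are lipid transporter relatives of little-known cargo, Abca8a had 42, 36, 37 and 37 contacts and Abca9 had 32, 39, 38 and 30, 52 in all for each. Of these, 28 fragments were contacted by both promoters (53.8% of each list), although no contact between the Abca8a and Abca9 baits, 77.7 kb apart, was listed. Fragments overlapping Abca8b took 16 Abca8a contacts and 13 Abca9 contacts. Abca6 had 1, 2, 4 and 1 contacts, among them Abca8b (7.3, 6.58 and 5.61 at ZT6, ZT12 and ZT18) and Abca8a (5.33, 6 and 7.77 at ZT0, ZT6 and ZT12). Abca8b met Abca9 at ZT6 (5.84) and ZT18 (5.35).

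On chromosome 17 the organic cation transporters Slc22a2 and Slc22a3, 73.1 kb apart, were listed as a contact at ZT0 (6.11) and ZT12 (5.52). Slc22a3 had 12, 11, 8 and 11 contacts and 24 in all, of which 2 were in every list and 15 overlapped Airn, a long non-coding RNA of the imprinted cluster there. Slco1a4 and Slco1a1 met at ZT0 (5.45), ZT12 (6.9) and ZT18 (5.29), and shared 4 further fragments, which is 44.4% of each list. No contact was listed between Abcb1a, Abcb1b and Abcb4, or between Slc22a5 and Slc22a21. The baits of Slc22a13 and Slc22a14 adjoin, and they were not listed as a contact either. Whether adjoining fragments could be listed at all was not checked, so that absence is not read as a result. This adjoining pair is among the 22 neighbouring pairs above.

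**Figure D4:**
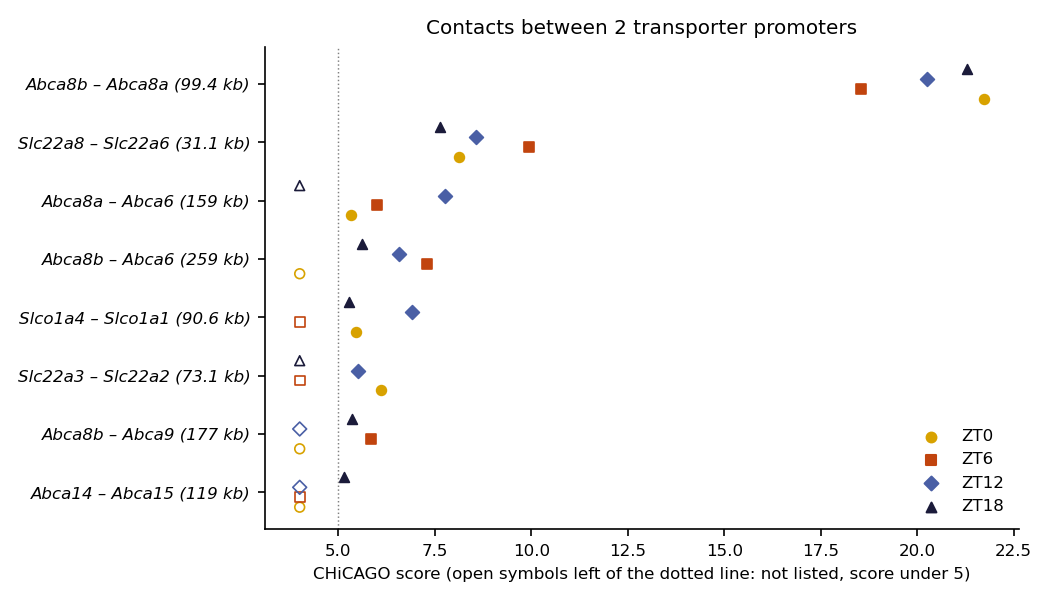
CHiCAGO scores of 8 contacts between 2 transporter promoters at each timepoint, with the midpoint distance in kb; open symbols left of the dotted line stand for timepoints at which the pair is not listed and have no measured score. Abca8b with Abca8a lies between 18.54 and 21.74, and every other contact stays under 10.

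Differences between opposite timepoints were few and close to the background. A promoter was called where the contacts, divided by the list total, differed at least 2-fold and at least 5 contacts were listed at a timepoint of the comparison, which 36 transporter baits allowed in either comparison. Between ZT0 and ZT12, Abcc10 had more contacts at ZT0 (1 of 36, or 2.78%, background 5.18%), and Abcc2 and Abcg4 had more at ZT12 (5.56%, background 5.04%). Between ZT6 and ZT18, Slc22a2 and Slc22a8 had more at ZT6 (5.56%, background 4.58%), and Abcc6 and Slc22a17 had more at ZT18 (5.56%, background 6.13%). These shares of members did not stand apart from the background shares, and the counts are small. Abcg4, a sterol exporter known from brain, had 3, 5, 7 and 3 contacts, and Abcc10 had 7, 5, 2 and 5. Slc22a2, the renal organic cation transporter OCT2, had 4, 5, 2 and 2, and Slc22a17, a receptor for lipocalin 2, had 5, 2, 3 and 5. With a minimum score of 7, 5 other promoters were called, namely Abca1, Abca4 and Abca14 with more at ZT12, and Abcg3 and the bait of Abca3 with more at ZT0. Background shares were not computed at that score, nor for the other order of the lists below, so these counts are not read as a result. Of the 7 promoters, Slc22a8 alone still had 5 contacts at that score in its comparison (5 at ZT6 and 3 at ZT18), and the others had too few to be called. In the order of the lists that the study's summary of sequencing gives, 5 of the 7 were called again and none at the timepoint stated above. In that order Slc22a2, Slc22a8 and Abcc10 had more contacts at ZT18 than at ZT6, and Abcc2 and Abcc6 had more at ZT6 than at ZT18.

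**Figure D5:**
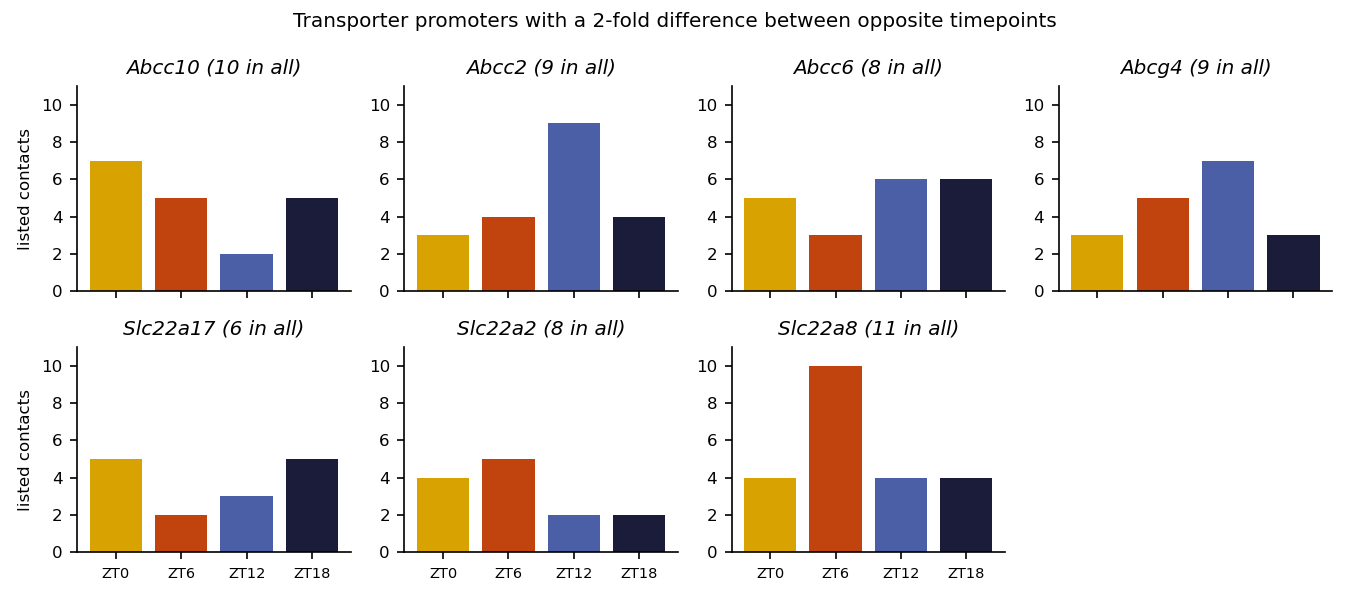
Listed contacts at ZT0, ZT6, ZT12 and ZT18 for the 7 transporter promoters with a 2-fold difference between opposite timepoints; the number in each title counts contacts over the 4 lists. No bar exceeds 10 contacts, and each bar is a single merged list without error.

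From total RNA that differed between timepoints, the study lists 8 of the genes on baits as circadian. These are Abcc2, Abcb4, Abcb1a, Abcg8, Abca6, Abca2, Abca3 and Slc22a15. The share of circadian genes over all genes on baits was not computed. Of the 8, Abcc2 alone was called for a 2-fold difference, a count too small to set beside the background shares above. Slc22a15, whose substrate is not settled, had 1, 2, 1 and 0 contacts. By the study's RNA, Abca2 and Abca3 peaked at ZT6, Abcc2, Abcb4, Abcb1a, Abcg8 and Abca6 at ZT12, and Slc22a15 at ZT0. Abcc2 and Abca6 had most contacts at ZT12 (9 and 4). Abcb4, Abcb1a and the bait of Abcg8 had most at ZT6 (19, 7 and 2), as had Slc22a15. Abca2 had most at ZT12 (41) and the bait of Abca3 at ZT0 (23), and both had fewest at ZT6 (22 and 13). In the other order of the lists, the list labelled ZT12 would be that of ZT6, and the list labelled ZT6 that of ZT18. Abca2, Abcc2 and Abca6 would then have most contacts at ZT6. Abcb4, Abcb1a, the bait of Abcg8 and Slc22a15 would have most at ZT18. Which genes have most contacts at their RNA peak thus depends on the order taken. With 1 list per timepoint the error of such differences is unknown.

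Strong contacts recurred in most lists. Of the 210 transporter pairs that reached a score of 10 at a timepoint, 186 (88.6%) were listed at all 4 timepoints, against 89.8% of the other pairs. Among the contacts in every list, the highest score exceeded the lowest by a median factor of 1.42, and by 2 or more in 17 of 333 contacts counted from a transporter bait. The widest was a Slc22a23 contact 303 kb upstream in 1300014I06Rik (7.65, 5.02, 9.14 and 13.18). The highest-scoring contact that missed a list joined Abca15, of little-known cargo, and the start fragment of Dnahc3, an axonemal dynein, over 232 kb: it scored 17.74 at ZT0, 20.44 at ZT6 and 5.59 at ZT18 and was not listed at ZT12. The Abca14 promoter was listed with the same fragment at ZT0 (10.61), ZT6 (14.42) and ZT18 (7.54), and not at ZT12. The Dnahc3 fragment is a bait with 4, 7, 0 and 2 contacts, so it had no contact of any kind in the ZT12 list. For Abca15 a fragment that adjoins the missing one was listed at ZT12. Abcc9 and a fragment that reached 16.58 were not listed at ZT0, again with an adjoining fragment listed there.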

How the data were processed

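The authors digested fixed mouse liver chromatin with HindIII, captured promoter fragments with biotinylated RNA probes to both fragment ends, mapped and filtered read pairs with HiCUP on mm9, and called interactions with CHiCAGO. Versions of these tools are not given in the sources used here. Every timepoint had 4 samples, from 3 pools of 2 livers with pool A on 2 lanes, and the authors merged them before calling. The deposited unit is the CHiCAGO score of each fragment pair, with a minimum of 5, and the lists hold 146262 interactions at ZT0 and, in the order of time, 154775, 151529 and 151347 at the later timepoints. The study's summary of sequencing gives these totals in another order for the last 3. The labels were followed here, and the other order was an alternative.

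Gene starts of GENCODE vM1 were laid on the HindIII digest of mm9, which matched 129886 of 129887 listed fragments. A pair was the same contact where both fragments were identical, distance was taken between midpoints, and a pair between 2 transporter baits counted once among pairs and once from either bait among contacts. Contacts of a bait were divided by the total of the list before the 2-fold call. Genes were named by family and contact number, role in hepatocyte uptake, efflux or lipid export, the study's circadian list, the 2-fold call, highest scores, and absence or sharing of a bait. The members and lists were chosen with earlier results of these data known. Wilson intervals cover counting error only. Start fragments were compared with blastn 2.17.0, and the rest was computed in Python 3.11.15 with pandas 2.3.3, numpy 2.4.6 and scipy 1.17.1. The counting was tested on simulated data.

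Alternatives were stricter minimum scores of 7 and 10, equal numbers of top-scoring pairs per list, other ends within 10 kb merged, baits holding any transcript start or no other gene, the gap in place of the midpoint distance, at least 10 contacts for the 2-fold call, and the other order of the lists. The omission of Slc22a23, 2 of the alternatives to the 2-fold call and the count of both-bait contacts from every bait were chosen after seeing the data. The contacts of 1 promoter are counted in the summaries over the set and are not reported here.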

Additional observations from a re-analysis of the deposited data

How the results depend on the processing

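No paired analysis was possible because each timepoint is 1 merged list and no test was made. With a minimum score of 7, transporter pairs numbered 307, 300, 305 and 323 at ZT0, ZT6, ZT12 and ZT18, and the median number of contacts per promoter was 5 instead of 10. With a minimum of 10, pairs numbered 106, 125, 125 and 129, the median number of contacts was 1, the share of pairs in every list 28.1%, the median distance 111 kb, and 1 contact between transporter promoters was left, that of Abca8b with Abca8a. With other ends within 10 kb merged over the 4 lists together, promoters had a median of 4 contacts. Where ends of the same bait within 10 kb together covered the 4 timepoints, 71.7% of pairs instead of 33.1% counted as in every list. Pairs inside a run of contacted fragments pass this rule more easily, and the same share over all baits was not computed. The 7 calls of a 2-fold difference became 4 with merged ends, of which 3 were among the 7, and 1 with at least 10 contacts, that of Slc22a8. With the other order of the lists 7 promoters were called, of which 5 were among the 7, and 0 of these 5 had more contacts at the same timepoint as by the labels: Slc22a2, Slc22a8 and Abcc6 turned direction, and Abcc2 and Abcc10 moved to the comparison of ZT6 with ZT18. With a minimum score of 7, 5 promoters were called, none of them among the 7, of which 1 still had enough contacts to be called. Background shares were computed for the main 2-fold call alone, so the counts of calls under other settings have none beside them. For all of these changes the cause was not tested. The promoter-promoter share lay between 20.4% and 23.3% under its alternatives. Pairs listed at a single timepoint scored near the minimum, and the lists give no read depth to set their error.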
